A study of Homo sapiens with 11 samples.

Results

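The 10 genes described here encode parts of the cornified envelope and of the desmosome, and they were taken by symbol from the 60605 features of a deposited expression table. Sciellin (SCEL), involucrin (IVL) and cornifelin (CNFN) are envelope precursors, TGM1 and TGM2 are transglutaminases, and periplakin (PPL) and envoplakin (EVPL) are plakins of the envelope scaffold. Desmoplakin (DSP) and plakophilin 3 (PKP3) are plaque proteins of the desmosome, and SFN is stratifin, the 14-3-3 sigma protein. All 10 symbols were found in the table. The rule that takes them uses their names alone, but the list was drawn up with earlier results of these data known. The study sequenced polyadenylated RNA of ARPE-19 cells, a widely used human cell line that derives from retinal pigment epithelium (RPE), as 11 libraries in 5 groups. Each group was a stable ARPE-19 line that had expressed its open reading frame or frames for 4 days: GFP, a fluorescent protein used as the control (n = 3 libraries), Oct4, Sox2, Klf4, or Oct4, Sox2 and Klf4 together (OSK), with n = 2 libraries for each of the last 4. The control cells therefore carried an expressed frame as well. The library names of the factor lines hold the tag mC, and those of GFP do not. Whatever mC marks cannot be told apart from the factors in comparisons with GFP. The species of the frames, what drives them, whether a line is a single clone and whether libraries came from separate cultures are not given in the sources used here, so p-values measure the spread between these libraries only.

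In stratified epithelia such as the epidermis, cells near the surface replace their membrane with the cornified envelope, a layer of proteins that transglutaminases crosslink. Envoplakin, periplakin and involucrin are laid down early beneath the membrane, close to desmosomes, and other precursors are added to them. Desmosomes join neighbouring cells, and desmoplakin ties them to the keratin filaments. Klf4 is a zinc finger transcription factor known in mouse skin as a factor needed for barrier formation. The RPE is a simple epithelium and forms no cornified envelope.

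Values are normalised counts, so that each library's read counts were scaled by 1 factor. Depth was 15053300 to 19791775 recovered reads. Reads were seen for 25853 to 26971 features in 9 of the libraries, but for 42956 in GFP replicate 1 and for 32493 in OSK replicate 1. In these 2 libraries, called here the libraries with wide detection, reads of olfactory receptor genes were found for 67.7% and 23.0% of 405 such genes, against 4.94% to 8.15% elsewhere. Members with few reads are therefore given with and without these libraries. KLF4 itself lay between 45.5 and 124 normalised counts in GFP. It reached 22142 and 24205 in the Klf4 line and 24202 and 24470 in the OSK line, and the difference between those lines was 0.07 on the log2 scale (SE 0.31, adjusted p = 0.907, limma). POU5F1, the gene of Oct4, rose by 7.99 in the Oct4 line and by 6.19 in OSK on the log2 scale. SOX2 rose by 8.90 in the Sox2 line and by 8.18 in OSK. Smaller rises were called in lines of another factor. They were 1.915 for KLF4 with Oct4 (adjusted p = 6.12e-05, limma) and 0.45 for POU5F1 with Klf4 (adjusted p = 0.0449). For SOX2 they were 1.63 with Oct4 and 1.39 with Klf4 (adjusted p = 2.6e-06 and 1.82e-05). Markers of mature RPE were partly absent: RPE65 stayed at or below 4.63 normalised counts in every library.

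The stretch before the annotated start is shown for SCEL and DSP, which rose with Klf4, and for SFN and IVL, which had few reads in all lines and whose Klf4 values lay within the GFP range. Klf4 is known to bind GC-rich and CACCC elements. Capitals mark each match to CACCC or to its reverse complement GGGTG, so that both strands are covered. The sequences are RefSeq reference sequence on GRCh38.p14, read 5′ to 3′ on the strand of the gene, and a promoter entry was found for 5 of the 10 members.
SCEL, chr13:77535456-77535673, plus strand: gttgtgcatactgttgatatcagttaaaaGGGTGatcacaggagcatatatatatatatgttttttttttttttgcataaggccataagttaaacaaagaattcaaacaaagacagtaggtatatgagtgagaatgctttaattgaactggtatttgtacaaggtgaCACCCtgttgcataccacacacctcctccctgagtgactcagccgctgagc
DSP, chr6:7541421-7541574, plus strand: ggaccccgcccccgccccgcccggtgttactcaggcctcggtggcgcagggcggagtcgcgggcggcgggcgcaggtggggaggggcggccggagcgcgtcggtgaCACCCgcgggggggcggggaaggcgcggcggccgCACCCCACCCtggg
SFN, chr1:26862899-26863137, plus strand: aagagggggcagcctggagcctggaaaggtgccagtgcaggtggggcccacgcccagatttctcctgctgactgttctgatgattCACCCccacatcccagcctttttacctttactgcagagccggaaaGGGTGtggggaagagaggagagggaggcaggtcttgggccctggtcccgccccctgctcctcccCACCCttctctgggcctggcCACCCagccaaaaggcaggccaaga
IVL, chr1:152908296-152908544, plus strand: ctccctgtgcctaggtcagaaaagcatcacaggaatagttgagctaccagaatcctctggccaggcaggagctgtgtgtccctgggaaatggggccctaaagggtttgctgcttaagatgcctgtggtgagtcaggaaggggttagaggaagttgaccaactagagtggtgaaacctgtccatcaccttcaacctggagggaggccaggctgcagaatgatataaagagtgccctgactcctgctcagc
The SCEL stretch of 218 bases held 2 matches, 1 in each orientation. Among all 35116 promoters of the table, cut to the same window, 50.3% held a match and 19.5% held at least as many. The DSP stretch of 154 bases held 3 matches, the last 2 of them end to end, and 3.0% of promoters cut to that window held as many or more. It is also rich in G and C, at 83.8% against a median of 56.5%, whereas the SCEL stretch is poor in them, at 37.6% against 57.8%. The most matches, 4, stood in the 239 bases before SFN, where 2.6% of promoters held as many or more. SFN had too few reads to be tested, and TGM1, which rose with Klf4, had no promoter entry. Whether matches go with a rise in the Klf4 line was therefore not tested. The promoter of CNFN, not printed, held 1, and 54.7% of promoters held at least 1. No match to these letters stands in the 249 bases before IVL, where 54.6% of promoters held at least 1. These matches describe letters and are not measured binding sites.

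In the Klf4 line SCEL, TGM1 and DSP rose, PPL rose slightly and TGM2 fell. SCEL went from 5 reads to 1120, TGM1 rose 7.62-fold and DSP 4.54-fold over the GFP means. In the Oct4 and Sox2 lines the picture differed: TGM2 rose 17.9-fold and 18.5-fold, while TGM1 and PPL fell. In OSK DSP rose 2.59-fold, SCEL rose but was 51.3-fold under its Klf4 level, and TGM1 did not pass the test. IVL, EVPL, SFN and PKP3 had few reads in all lines. In bulk RNA, more cells that express a gene and more RNA per cell cannot be told apart.

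**Figure D1:**
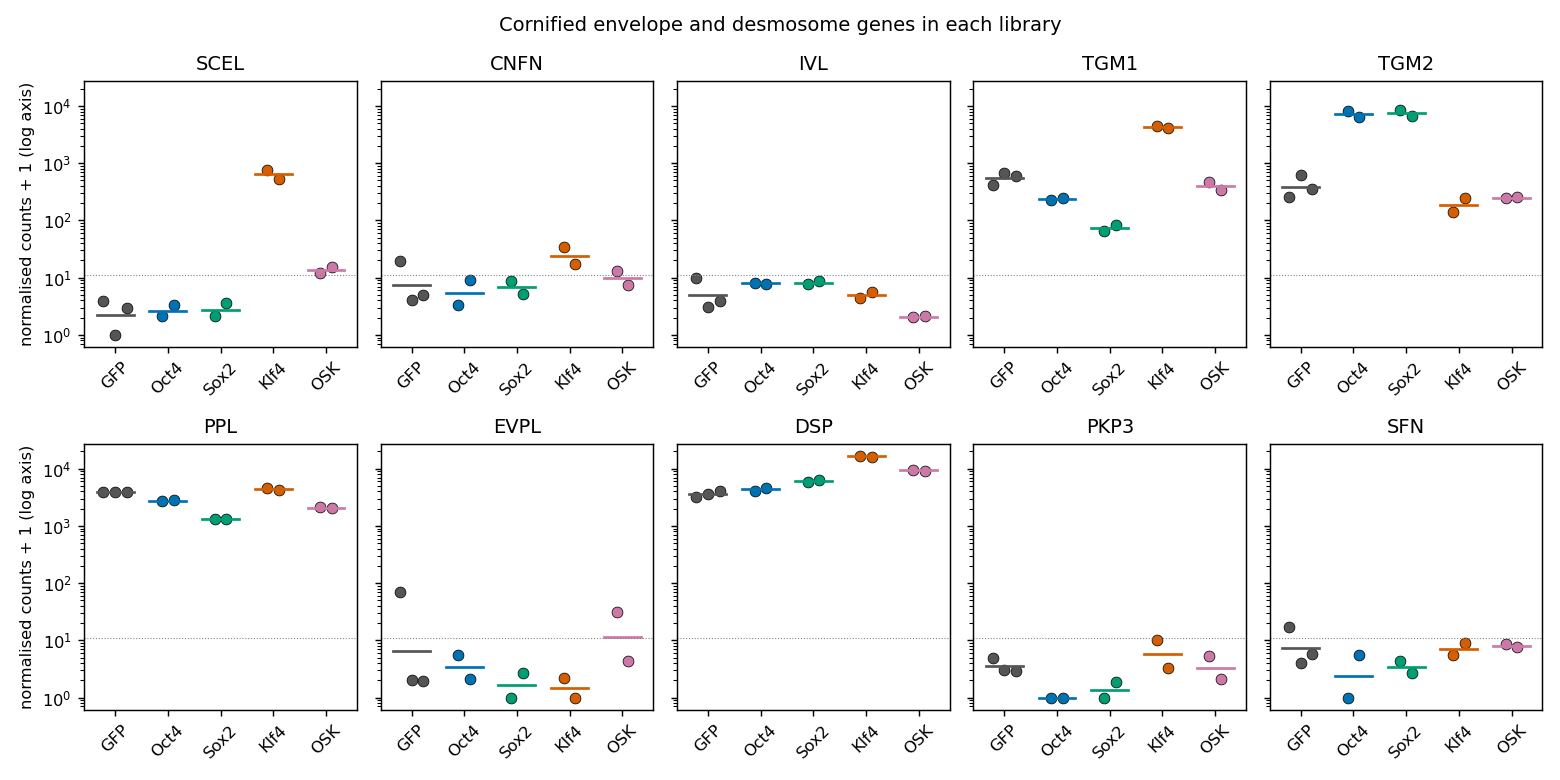
Normalised counts plus 1 of the 10 genes in each of the 11 libraries, on a log axis shared by all panels, with 1 point per library and a line at the mean of the log values of each group. The dotted line marks a value of 10, the level required in 2 libraries for a gene to be tested. SCEL, TGM1 and DSP are highest in the Klf4 libraries and TGM2 in the Oct4 and Sox2 libraries, while IVL, SFN and PKP3 stay near or below the dotted line.

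Of the 10 members, 7 reached a value of 10 in 2 or more libraries and were tested (SCEL, CNFN, PPL, EVPL, TGM1, TGM2 and DSP), together with 18828 genes in all. IVL, SFN and PKP3 were not. A gene that passes this filter only through the lines where it is high, as SCEL does through Klf4 and OSK, had to differ, so the counts that follow describe the tested members and not all 10. With Klf4, 4 tested members were higher than in GFP, where 17.6% of all tested genes were called higher, and 1 was lower, where 16.0% were. With Oct4, 2 were higher (background 20.1%) and 2 lower (17.2%). The Sox2 line also had 2 higher (21.7%) and 2 lower (19.9%). In OSK 2 were higher (19.7%) and 1 was lower (20%). The median log2 change of the 7 tested members was 1.73 in Klf4, 0.44 in OSK, -0.10 in Sox2 and -0.42 in Oct4, and that of all tested genes lay between -0.02 and -0.01. These 4 comparisons share the GFP libraries. The Klf4 counts became 5 higher and 1 lower of 6 tested without the libraries with wide detection, and the OSK counts 2 higher and 3 lower of 6. Leaving out Klf4 replicate 1 left 3 higher and none lower with Klf4, since PPL and TGM2 were then not called.

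**Figure D2:**
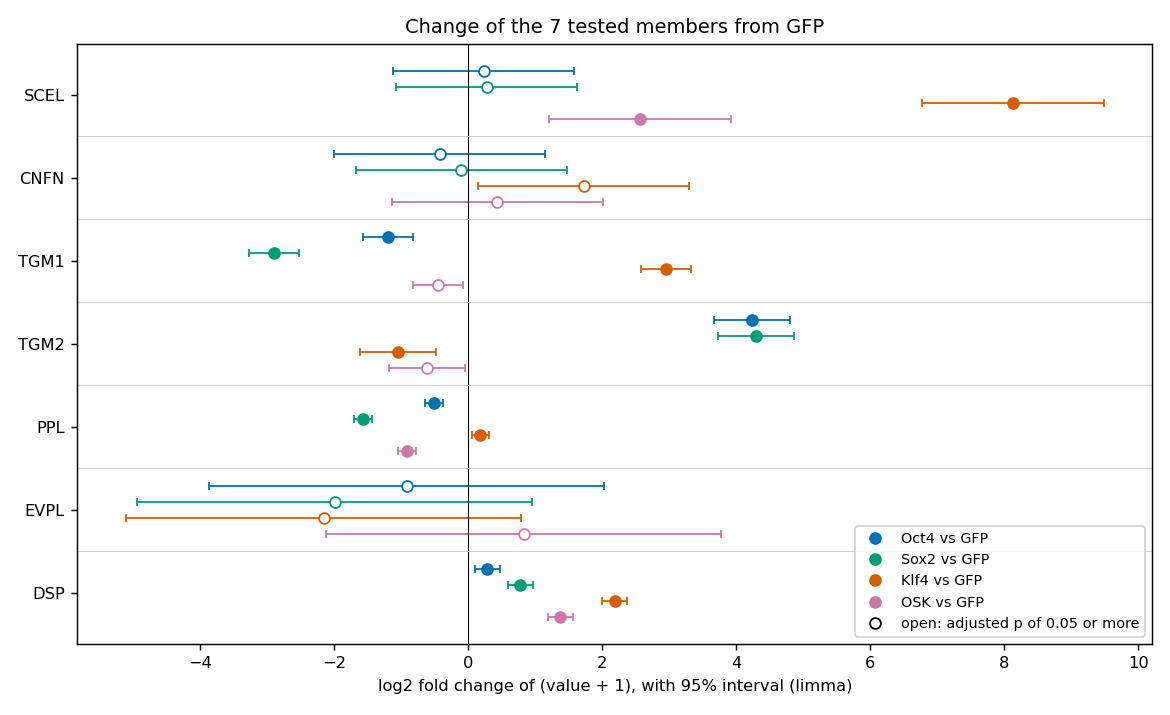
Log2 fold change from GFP of the 7 tested genes in the Oct4, Sox2, Klf4 and OSK lines, on the scale of value plus 1, with 95% intervals from limma. Filled points have an adjusted p under 0.05. The intervals of CNFN and EVPL are wide, and those of PPL and DSP are narrow.

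Sciellin binds to the envelope of stratified and squamous epithelia. Its gene lies at chr13:77535674-77645263 on the plus strand (GRCh38, GENCODE 29). SCEL had 2.98, 0 and 1.94 normalised counts in the GFP libraries, 1.16 and 2.29 with Oct4, and 1.12 and 2.57 with Sox2. It had 758 and 531 in the Klf4 libraries and 10.8 and 14.3 in the OSK libraries. Both Klf4 libraries stood above all others, and both OSK libraries stood above those of GFP, Oct4 and Sox2. The Klf4 libraries held 1120 reads of SCEL and the GFP libraries 5, a ratio of 389 after correction for depth, with a 95% exact interval of 166 to 1202 that covers counting error only. Without GFP replicate 1 the ratio was 649 (interval 179 to 5368). On the log2 scale the Klf4 change was 8.13 (SE 0.64, adjusted p = 8.21e-08, limma). For OSK against GFP, 23 reads against 5 gave a ratio of 7.60 (2.82 to 25.6) and a log2 change of 2.57 (adjusted p = 0.00418). Without the libraries with wide detection, 13 reads against 2 gave a ratio of 14.4 (3.27 to 131.6). With only GFP and OSK libraries in the fit this p became 0.0534. The OSK libraries had 51.3-fold less SCEL than the Klf4 libraries, a log2 difference of -5.56 (SE 0.70, adjusted p = 2.22e-05, limma). An antisense gene, SCEL-AS1, overlaps SCEL by 144 exonic bases, and it was at 0 in 10 of 11 libraries and at 1.16 in the other.

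Cornifelin and involucrin are precursors of the envelope. CNFN lies at chr19:42387019-42390287 on the minus strand and IVL at chr1:152908545-152911886 on the plus strand. CNFN had 33.5 and 16.0 normalised counts in the Klf4 libraries, 18.9 in GFP replicate 1 and 3.03 and 3.89 in the other GFP libraries. The Klf4 libraries thus overlapped GFP through the library with wide detection. In the other lines CNFN ranged from 2.32 to 11.9. Against GFP the Klf4 change of CNFN was 1.73 on the log2 scale (95% interval 0.16 to 3.30, adjusted p = 0.0869, limma). Without GFP replicate 1 it was 2.45 with an adjusted p of 0.00563, and the read ratio moved from 2.88 (1.73 to 4.87) to 7.12 (3.18 to 18.8). CNFN was called higher in Klf4 than in Oct4 (log2 2.15, adjusted p = 0.0442), a call lost with edgeR (adjusted p = 0.0668) and DESeq2 (adjusted p = 0.0713) and in 7 of the 11 fits that left out 1 library. IVL was low everywhere. It had 8.94, 2.02 and 2.92 normalised counts in GFP, 6.97 and 6.87 with Oct4, 6.73 and 7.71 with Sox2, 3.47 and 4.57 with Klf4, and 1.08 and 1.10 with OSK. The Klf4 values lay within the GFP range, whose top is GFP replicate 1, and above the other GFP libraries. The read ratio of Klf4 to GFP was 0.87 (95% exact interval 0.30 to 2.30, counting error only), and 1.62 (0.44 to 6.49) without the libraries with wide detection, so that its direction turned and both intervals included 1.

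Transglutaminases crosslink glutamine to lysine side chains. TGM1 is the membrane-bound enzyme of keratinocytes that builds the envelope, and TGM2 is the tissue transglutaminase, which is widely expressed and also acts on extracellular matrix proteins. TGM1 lies at chr14:24249114-24264432 and TGM2 at chr20:38127387-38166578, both on the minus strand. TGM1 had 409, 668 and 596 normalised counts in GFP, and 4407 and 4088 in the Klf4 libraries. In the other lines it had 230 and 246 with Oct4, 65.1 and 81.3 with Sox2, and 472 and 342 with OSK. The Klf4 libraries were highest, the OSK libraries overlapped GFP, the Oct4 libraries lay below both, and the Sox2 libraries were lowest. The Klf4 change was 2.96 on the log2 scale (SE 0.17, adjusted p = 3.45e-09, limma). TGM1 fell by 1.20 with Oct4 (SE 0.17, adjusted p = 5.01e-05) and by 2.89 with Sox2 (SE 0.17, adjusted p = 2.06e-09), a level 2.34-fold and 7.62-fold under the GFP mean. From the Sox2 mean to the Klf4 mean TGM1 spanned 58.0-fold.

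TGM1 in OSK had a log2 change of -0.44 from GFP (95% interval -0.81 to -0.07, adjusted p = 0.056, limma), so it was not called. Without GFP replicate 1 the change was -0.65 with an adjusted p of 0.000832, without OSK replicate 1 it was -0.67 with an adjusted p of 0.0233, and with both of them left out it was -0.88 with an adjusted p of 0.000176. Relative to the Klf4 line, OSK had 10.4-fold less TGM1 (log2 -3.40, SE 0.19, adjusted p = 5.67e-09). Relative to Oct4 and Sox2 it was higher, by 0.75 (adjusted p = 0.00482) and 2.45 (adjusted p = 4.37e-08) on the log2 scale. The OSK level of TGM1 therefore lay between the Klf4 level and those of the Oct4 and Sox2 lines. The call against Oct4 was lost without OSK replicate 1 (log2 0.52, adjusted p = 0.0872).

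TGM2 had 257, 615 and 354 normalised counts in GFP. It had 8232 and 6420 with Oct4, 8434 and 6701 with Sox2, 142 and 242 with Klf4, and 246 and 255 with OSK. The Oct4 and Sox2 libraries were far above all others and overlapped each other, and the Klf4 and OSK libraries lay below every GFP library. The rise was 4.24 on the log2 scale with Oct4 (SE 0.27, adjusted p = 4.64e-09, limma) and 4.29 with Sox2 (SE 0.27, adjusted p = 2.87e-09). TGM2 fell by 1.04 with Klf4 (adjusted p = 0.0066), a call lost without Klf4 replicate 1 (log2 -0.66, adjusted p = 0.152) and when only GFP and Klf4 were fitted (adjusted p = 0.0505). Its change in OSK was -0.61 (95% interval -1.18 to -0.04, adjusted p = 0.0839), and -0.89 with an adjusted p of 0.00285 without GFP replicate 1. OSK had 29.2-fold less TGM2 than the Oct4 line and 30.2-fold less than the Sox2 line (adjusted p = 2.67e-09 and 2.15e-09, limma). Thus the rise seen with either factor alone was not seen in the line that carried both of them with Klf4. The OSK line also had less POU5F1 than the Oct4 line (log2 -1.80, adjusted p = 7.92e-07, limma). Its SOX2 was lower than in the Sox2 line (log2 -0.72, adjusted p = 0.008). Whether these differences bear on TGM2 was not tested. RPRD1B, which overlaps TGM2 on the opposite strand by 394 exonic bases, ranged from 390 to 679 normalised counts over the 11 libraries, and whether counting used strand is not given in the sources used here.

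Per kilobase of exon, the 2 enzymes traded places between lines. TGM1 exceeded TGM2 per kilobase in every GFP library, by 3.42, 2.34 and 3.62 times. In the Klf4 libraries it exceeded TGM2 by 66.6 and 36.3 times. TGM2 exceeded TGM1 by 16.6 and 12.1 times with Oct4 and by 60.2 and 38.3 times with Sox2. In OSK the ratio of TGM1 to TGM2 was 4.12 and 2.88, which overlapped the GFP range.

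**Figure D3:**
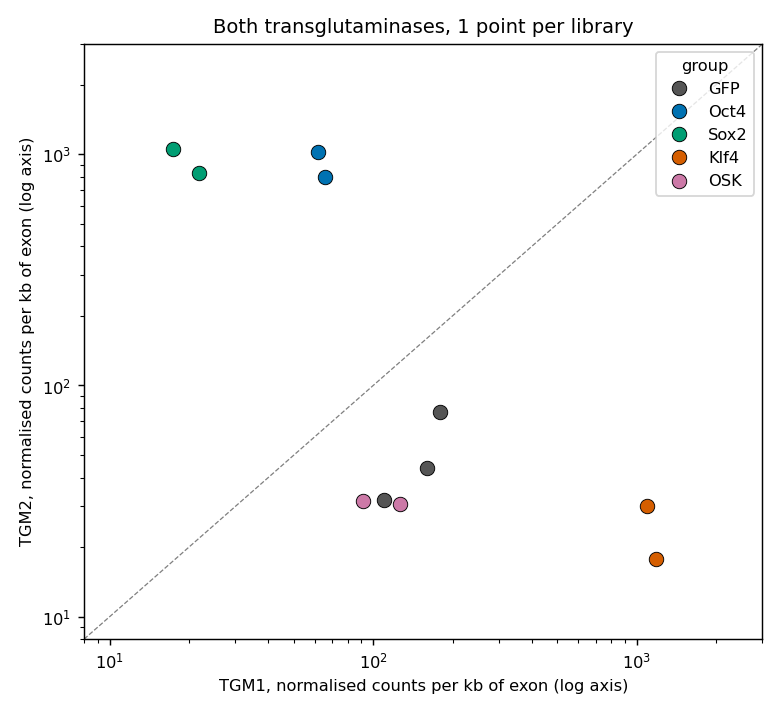
TGM1 (horizontal) and TGM2 (vertical) in normalised counts per kilobase of exon, both on log axes, with 1 point per library and a dashed line where the 2 are equal. The Oct4 and Sox2 libraries lie above the line, the GFP and OSK libraries lie together below it, and the Klf4 libraries lie farthest below it.

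Periplakin and envoplakin form heterodimers that link the envelope to desmosomes and keratin filaments. PPL lies at chr16:4882507-4960741 and EVPL at chr17:76004502-76027452, both on the minus strand. PPL had 3912, 3880 and 3930 normalised counts in GFP, 2687 and 2825 with Oct4, 1327 and 1311 with Sox2, 4659 and 4243 with Klf4, and 2101 and 2060 with OSK. No 2 groups overlapped, and the order was Klf4, GFP, Oct4, OSK and Sox2. PPL fell by 1.57 on the log2 scale with Sox2 (SE 0.06, adjusted p = 1.88e-11, limma), by 0.91 in OSK (adjusted p = 1.18e-08) and by 0.50 with Oct4 (adjusted p = 9.39e-06). The Klf4 rise of 0.19 (adjusted p = 0.031) was 1.14-fold and was lost when Klf4 replicate 1, GFP replicate 2 or GFP replicate 3 was left out (adjusted p = 0.311, 0.0688 and 0.0591). A fit of the GFP and Klf4 libraries alone lost it too (adjusted p = 0.0927).

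EVPL, the partner of PPL, was nearly absent outside the libraries with wide detection. It had 69.5 normalised counts in GFP replicate 1 and 30.4 in OSK replicate 1, and between 0 and 4.64 in the other 9 libraries. These 2 libraries held 88.3% of its 111 reads, against 17.8% of all reads. No EVPL change was called in any of the 9 comparisons, and the interval for Klf4 against GFP ran from -5.10 to 0.79 on the log2 scale. Per kilobase of exon, PPL was the highest of the 10 genes in GFP, at 508 normalised counts on average, whereas EVPL was at 3.17.

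**Figure D4:**
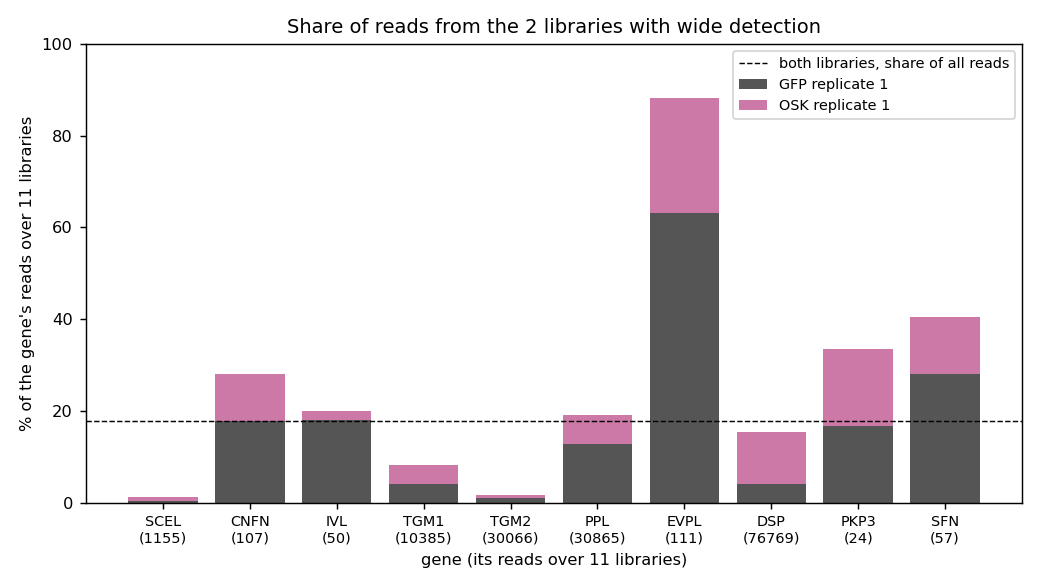
Share of each gene's reads, summed over the 11 libraries, that came from GFP replicate 1 and OSK replicate 1, with the read total under each gene and a dashed line at the share of these libraries in all reads (17.8%). EVPL is at 88.3% and SFN at 40.4%, whereas SCEL and TGM2 are at 1.1% and 1.6%.

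Desmoplakin anchors keratin filaments to the desmosome, and plakophilin 3 is an armadillo protein of the plaque that binds it. DSP lies at chr6:7541575-7586717 and PKP3 at chr11:392614-404908, both on the plus strand. DSP had 3159, 3626 and 4016 normalised counts in GFP and 4150 and 4624 with Oct4. It had 5856 and 6458 with Sox2, 9364 and 9285 with OSK, and 16760 and 15914 with Klf4. No groups overlapped, so the order from GFP through Oct4, Sox2 and OSK to Klf4 held in every library. The log2 rise was 2.19 with Klf4 (SE 0.09, adjusted p = 6e-11, limma), 1.38 in OSK (SE 0.09, adjusted p = 5.71e-09) and 0.78 with Sox2 (SE 0.09, adjusted p = 2.93e-06). With Oct4 it was 0.29 (adjusted p = 0.0177), a call lost without Oct4 replicate 2 (log2 0.21, adjusted p = 0.195) and when only GFP and Oct4 were fitted (adjusted p = 0.0653). OSK had 1.75-fold less DSP than Klf4 (log2 -0.81, adjusted p = 1.51e-05). Per kilobase of exon DSP was the highest of the 10 genes in the Klf4 line, at 1619 normalised counts on average, followed by TGM1 at 1137 and PPL at 579.

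PKP3 had 24 reads in all. Its values were 3.97, 2.02 and 1.94 normalised counts in GFP, 9.25 and 2.29 with Klf4, 4.34 and 1.10 with OSK, 0 and 0.86 with Sox2, and 0 in both Oct4 libraries. The Klf4 and GFP libraries overlapped, and the read ratio of Klf4 to GFP was 2.17 (95% exact interval 0.77 to 6.34, counting error only), and 2.90 (0.84 to 12.7) without the libraries with wide detection. SFN, a 14-3-3 protein of stratified epithelia that binds keratin 17 and regulates the cell cycle, lies in a single exon at chr1:26863138-26864457 on the plus strand. It had 15.9, 3.03 and 4.86 normalised counts in GFP, 4.63 and 8 with Klf4, 7.59 and 6.60 with OSK, 0 and 4.58 with Oct4, and 3.37 and 1.71 with Sox2. GFP replicate 1 was the highest library, and the Klf4 values lay within the GFP range only through it. The read ratio of Klf4 to GFP was 0.80 (interval 0.35 to 1.69), and it turned to 1.59 (0.58 to 4.57) without the libraries with wide detection.

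The remaining comparisons set OSK beside each factor alone and Klf4 beside the other factors. Between OSK and Klf4, 0 tested members were higher in OSK (background 9.56%) and 4 were lower, where 11.9% of all tested genes were called lower: SCEL, PPL, TGM1 and DSP. At an unadjusted p under 0.05, 0 members were higher in OSK, and edgeR and DESeq2 also called 0 higher. Against Oct4, OSK had 3 higher (18.4%) and 2 lower (21.9%), with SCEL, TGM1 and DSP up and PPL and TGM2 down. The SCEL call (log2 2.34, adjusted p = 0.0136, limma) was lost without Oct4 replicate 1 or OSK replicate 2 (adjusted p = 0.0842 and 0.0873). Against Sox2 it had 4 higher (20%) and 1 lower (20.5%), the same direction except for PPL, which was higher by 0.66 on the log2 scale (adjusted p = 1.19e-06, limma). SCEL was again lost (log2 2.29, adjusted p = 0.0153) without Sox2 replicate 1 or OSK replicate 2 (adjusted p = 0.104 and 0.0938). Klf4 against Oct4 gave 5 higher (20%) and 1 lower (21.8%). Klf4 against Sox2 gave 4 higher (20.7%) and 1 lower (20.1%), and TGM2 was the lower gene in both. These comparisons share libraries with each other and with those against GFP.

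Other genes of the cornified envelope and the barrier were mostly silent. Of 52 such genes in the table, 13 were tested, and with Klf4 7 of them rose and 1 fell (17.6% and 16.0% of all tested genes). The same counts were found among 11 tested without the libraries with wide detection. The counts were 4 and 1 when GFP replicate 3 or either Klf4 library was left out. As among the members, some of these genes passed the filter only where they were high: TGM5 through the Klf4 libraries alone, and CRNN through Klf4 and OSK. The median log2 change was 0.82, against -0.02 for all tested genes. CRNN, which encodes cornulin of squamous epithelia, had 4.97, 0 and 0 normalised counts in GFP, 63.6 and 67.4 with Klf4, and 140 and 111 with OSK. FLG, the gene of filaggrin, which bundles keratin filaments, had 56.6, 21.2 and 20.4 in GFP, 192 and 167 with Klf4, and 1312 and 1053 with OSK. In both genes the OSK libraries were above the Klf4 libraries, the reverse of SCEL and TGM1. FLG was higher in OSK than in Klf4 by 2.71 on the log2 scale (SE 0.35, adjusted p = 2.71e-05, limma), whereas for CRNN the difference was 0.92 (SE 0.85, adjusted p = 0.515). FLG-AS1, an antisense gene at FLG, ranged from 2.92 to 34.3 normalised counts over all libraries. CLIC3, a chloride channel family gene, rose by 3.69 with Klf4 (adjusted p = 2.71e-05) and fell by 2.96 with Oct4 (adjusted p = 0.000193) and by 3.83 with Sox2 (adjusted p = 1.13e-05).

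OSK raised 4 of the 13 tested envelope and barrier genes and lowered 1, with a median log2 change of 0.43. Among them ANXA1, the annexin A1 gene, rose by 1.15 in OSK (adjusted p = 6.05e-07). Oct4 had 1 higher and 3 lower (20.1% and 17.2% of all tested genes), and Sox2 3 higher and 2 lower (21.7% and 19.9%). ANXA1 was down by 0.37 with Oct4 (log2 -0.37, adjusted p = 0.017, limma) and up by 0.78 with Sox2 (adjusted p = 3.05e-05). The ANXA1 call with Oct4 was lost without Oct4 replicate 1 (log2 -0.17, adjusted p = 0.337), GFP replicate 2 (adjusted p = 0.0556) or GFP replicate 3 (adjusted p = 0.0557), and with no filter (adjusted p = 0.055). FLG was higher by 1.11 with Oct4 (adjusted p = 0.0116) and 1.07 with Sox2 (adjusted p = 0.0124), calls that DESeq2 did not make (adjusted p = 0.0742 and 0.0758) and that were also lost when several single libraries were left out (adjusted p up to 0.103). The small proline-rich genes of the envelope had 19 reads over 10 genes and 11 libraries, of which 17 were in GFP replicate 1 and 2 in OSK replicate 1. The late cornified envelope genes had 18 reads over 9 genes, 15 and 3 of them in the same libraries. Both families were thus at 0 reads in the other 9 libraries, the Klf4 libraries included.

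**Figure D5:**
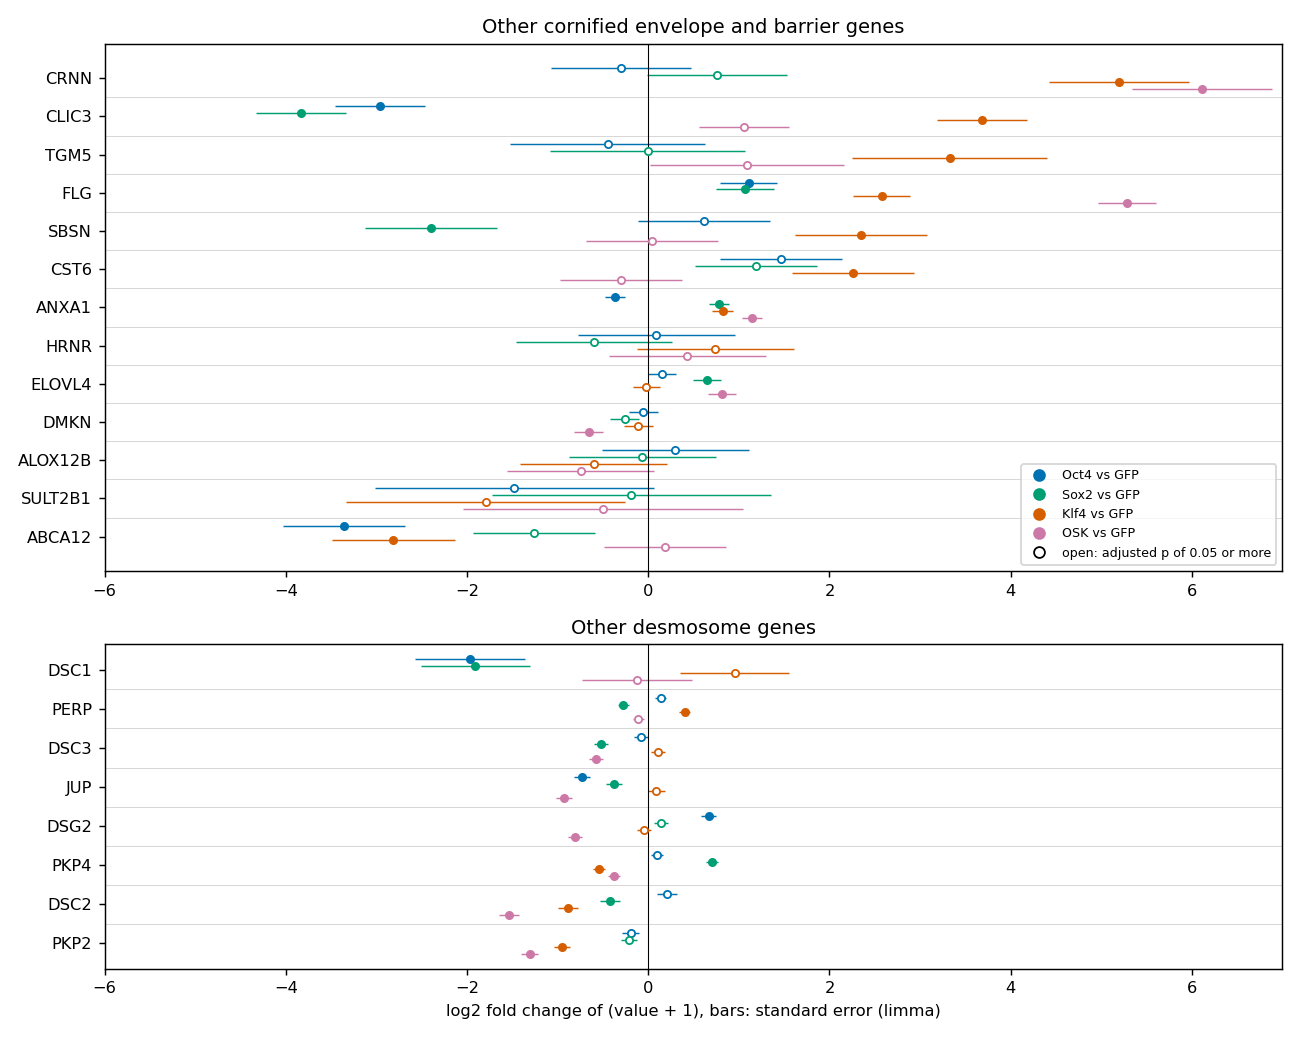
Log2 fold change from GFP of the 13 tested genes among the other envelope and barrier genes (top) and the 8 tested among the other desmosome genes (bottom), on the scale of value plus 1, with bars of 1 standard error from limma. Filled points have an adjusted p under 0.05. With Klf4, 7 of the 13 barrier genes and 1 of the 8 desmosome genes are filled to the right of 0. Of all tested genes, 17.6% were called higher with Klf4, and the share of the desmosome genes is near that.

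The other desmosome genes did not share a direction with Klf4, where DSP rose. Of 13 listed, 8 were tested, and with Klf4 1 rose (PERP, log2 0.40, adjusted p = 7.51e-05) and 3 fell. Over all tested genes the shares were 17.6% and 16.0%, so the share that rose was near that over all tested genes. PKP2 fell by 0.95 (adjusted p = 6.88e-07), the desmosomal cadherin gene DSC2 by 0.89 (adjusted p = 1.23e-05) and PKP4 by 0.55 (adjusted p = 1.15e-05). In OSK 0 rose and 6 fell, among them DSC2 by 1.54 (adjusted p = 1.98e-08), PKP2 by 1.31 (adjusted p = 1.26e-08) and JUP, the plakoglobin gene, by 0.93 (adjusted p = 7.09e-07). The median log2 change was 0.02 with Klf4 and -0.69 in OSK. Oct4 had 1 higher (DSG2, 0.67) and 2 lower (20.1% and 17.2% of all tested genes). Sox2 had 1 higher (PKP4, 0.71) and 5 lower (21.7% and 19.9%). PERP was chosen for mention after its value was seen.

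Relatives of the member proteins were tested for 11 of 15 listed plakin, transglutaminase and 14-3-3 genes. With Klf4 5 rose and 2 fell (17.6% and 16.0% of all tested genes). EPPK1, the epiplakin gene, rose by 3.21 on the log2 scale (280 against 31.8 normalised counts on average, adjusted p = 1.18e-06), and PLEC, the plectin gene, by 1.90 (adjusted p = 3.36e-10). DST, the dystonin gene, rose by 0.63 with Klf4 and by 0.61 in OSK (adjusted p = 3.36e-05 and 3.17e-05). Sox2 had 6 higher and 1 lower, Oct4 6 higher and 2 lower, and OSK 5 higher and 2 lower. The median log2 change in these 4 comparisons lay between 0.09 and 0.28. With 1 library left out the number called fell as low as 4 in each of the 4 comparisons.

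Of 22 epidermal transcription regulators listed, 16 were tested. With Klf4 3 rose and 5 fell (17.6% and 16.0% of all tested genes), and the median log2 change was -0.51. The share that rose was thus near that over all tested genes. TP63, the master regulator of stratified epithelia, had 22.8, 34.4 and 29.2 normalised counts in GFP and 6.94 and 5.71 with Klf4, a fall of 2.01 (adjusted p = 0.00958, limma), which was lost without Klf4 replicate 2 (adjusted p = 0.0661). It also fell by 2.26 with Oct4 (adjusted p = 0.00392) and fell by 2.49 in OSK (adjusted p = 0.0017). TP63 passed the filter through the GFP libraries alone, so some fall in every factor line was built into its selection. Its p-values, those with Klf4 and Sox2 included, are to be read with that limit. With Sox2 TP63 fell by 1.62 (adjusted p = 0.0263), a call lost when any 1 of GFP replicate 2, GFP replicate 3 and both Sox2 libraries was left out (adjusted p from 0.0652 to 0.14), and with no filter (adjusted p = 0.0637). FOSL1 fell by 2.28 with Klf4 (adjusted p = 1.93e-07) while FOSL2, its relative in the AP-1 family, rose by 1.45 (adjusted p = 2.56e-09). EHF, an epithelial ETS factor, rose by 5.09 with Sox2 (adjusted p = 7.03e-05, limma). It reached a value of 10 only in the Sox2 libraries and OSK replicate 1, so it passed the filter through the line where it is high. ELF3, of the same family, averaged 86.3 normalised counts in GFP and fell to 13.3 with Oct4 and 12.2 with Sox2 (adjusted p = 7.57e-07 and 3.49e-07, limma). Oct4 had 2 higher and 6 lower, Sox2 2 higher and 9 lower, and OSK 2 higher and 6 lower.

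Markers of keratinocytes moved in part with SCEL and TGM1. Of 16 listed, 10 were tested, and with Klf4 4 rose and 0 fell (5 rose and 0 fell among 8 tested without the libraries with wide detection). Over all tested genes 17.6% rose and 16.0% fell with Klf4. KRT16, a keratin of stressed and proliferating keratinocytes, had 23.8, 2.02 and 0 normalised counts in GFP, 1317 and 1289 with Klf4, and 53.1 and 20.9 with OSK. KRT14, a keratin of basal keratinocytes, had 12.9, 0 and 0 in GFP, 111 and 147 with Klf4, and 3.25 and 2.20 with OSK. It reached a value of 10 only in the Klf4 libraries and GFP replicate 1, so it passed the filter through the line where it is high. LAMB3, a laminin chain gene, had 32.8, 14.2 and 13.6 in GFP, 282 and 273 with Klf4, and 18.4 and 30.8 with OSK. In all 3 genes the Klf4 libraries were above every other library. The Klf4 changes were 8.27, 5.75 and 3.83 on the log2 scale (adjusted p = 5.98e-06, 0.000503 and 1.66e-06, limma). DESeq2 did not call KRT14 (adjusted p = 0.226), and keratin genes have near-identical copies, so their counts are uncertain.

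Other keratins of the epidermis differed in level. KRT5, the partner of KRT14, was at most 4.97 normalised counts in any library, and KRT1 and KRT2 were at 0 in all but GFP replicate 1. KRT10, the partner of KRT1, was at 370 to 614 in all 11 libraries, GFP included. The summed level of the keratinocyte markers, mostly ITGB4, ran from 12942 to 15834 in GFP and from 19310 to 19995 with Klf4. It ran from 5742 to 5773 with Oct4, 3067 to 3696 with Sox2 and 4880 to 5580 in OSK. Keratinocyte markers were called 0 higher and 1 lower with Oct4, 1 and 3 with Sox2, and 1 and 3 in OSK. Without the libraries with wide detection the Oct4 counts were 2 higher and 1 lower and the Sox2 counts 1 and 1. Their part in the changes of the members was not tested.

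RPE markers, of which 12 of 15 were tested, summed to 33573 to 37258 normalised counts in GFP and to 26139 to 29295 with Klf4. They summed to 18520 to 19090 with Oct4, 21516 to 22199 with Sox2 and 16032 to 16315 in OSK. KRT8 and KRT18 made up most of each sum, and KRT8 averaged 14280 with Sox2, 10740 with Oct4 and 7013 in OSK. The sums therefore do not rank the lines by their pigment genes. PMEL, for example, averaged 140 with Sox2, 612 with Oct4 and 809 in OSK. Called higher and lower were 2 and 4 with Klf4, 1 and 9 with Oct4, 0 and 6 with Sox2, and 1 and 10 in OSK. PMEL, a melanosome gene, fell by 2.00 with Klf4 and fell by 5.23 with Sox2 (adjusted p = 1.02e-06 and 1.1e-11, limma), whereas RDH5, a visual cycle enzyme gene, rose by 2.60 with Klf4 (adjusted p = 3.25e-08). Fibroblast markers, 7 of 10 tested, had 0 higher and 4 lower with Klf4 and in OSK, 2 and 1 with Oct4, and 3 and 2 with Sox2. Their sums ran from 14159 to 16774 in GFP, 7361 to 8660 with Klf4 and 5198 to 6034 in OSK, and reached 11043 to 14190 with Oct4 and 13334 to 16223 with Sox2. Endothelial markers had 1 of 4 tested genes lower and 0 higher in each line. The 8 blood cell markers summed to at most 29.3 outside GFP, where the highest sum was 148, and the 1 tested gene was not called. The part of these cell type markers in the changes of the members was not tested.

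Genes whose levels followed each member most closely were found by the root mean square difference of centred log2 values over the 11 libraries. DSP had the closest match among the tested members, ABHD12, at a difference of 0.13 on the log2 scale. ABHD12 averaged 1342 normalised counts in GFP, 1528 with Oct4, 2088 with Sox2, 3345 in OSK and 4996 with Klf4. PPL was followed by MIDEAS and SOD3 (0.18 each). COL8A2 and ANXA8 followed TGM1 at 0.44 and 0.46, and ANXA8, an annexin gene, averaged 2427 in GFP, 442 with Sox2 and 9862 with Klf4. NRP2 and FN1 followed TGM2 at 0.59 and 0.68, and FN1, the fibronectin gene, averaged 6596 in GFP, 65170 with Oct4, 41740 with Sox2 and 3549 with Klf4. LYPD2 and ADAM33 were the nearest to SCEL, at 0.89 and 0.90. For CNFN and EVPL, whose values are low, the nearest were HROB (0.49) and ST6GALNAC1 (0.57).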

How the data were processed

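Polyadenylated RNA of 11 ARPE-19 libraries was isolated with TRIzol, enriched with oligo(dT) and prepared with a NEBNext Ultra II kit, per the labels' protocols. STAR 2.7.1a and featureCounts 1.6.2 are named in the submitters' processing notes, as are GRCh38 and GRCm38, with no role given. The annotation and use of strand are not given in the sources used here. The authors deposited a signal per gene, normalised counts with 2 decimals. From the values, each is a read count divided by a factor per library: up to 200, 100.0% of values were whole multiples of 1 read within a tolerance of 0.0061, and reads were recovered by that division.

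The main test was limma 3.58.1 (R 4.3.3, trend) on log2(value + 1), which understates changes of low genes. It was chosen because the deposited values are not raw counts. It took in the 18828 genes that reached a value of 10 in 2 or more libraries. All 11 libraries shared 1 fit with a mean per group and no block (6 residual and 9.21 prior degrees of freedom), with Benjamini-Hochberg adjustment across the tested genes and a threshold of 0.05. The procedure was also run on simulated reads, drawn with the same spread for all genes and without libraries of wide detection. That run therefore does not cover the members with few reads. Read ratios have exact 95% intervals that cover counting error only. Gene positions and exon lengths came from GENCODE 29 by symbol, and promoter sequences from RefSeq. The mean chi-square per feature between replicates was above sampling noise. It was 12.0 and 10.6 in pairs with GFP replicate 1, and 3.11 to 5.06 in the other pairs. Each library was counted as a sample, but these values cannot show that libraries came from separate cultures.

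The 10 members and 9 further gene lists were chosen with earlier results of these data known. Besides the members and the factor genes, most genes were named by a rule. Per list and comparison with GFP it gives up to 3 genes with the largest log2 change. It takes them from genes with an adjusted p under 0.05 and a mean of at least 20 in a compared group. It also gives the 2 genes nearest to each member with a mean of at least 20 in some group. Not every gene it gives is named, TYR and MACF1 among those left out. KRT5, KRT1, KRT2, KRT10, KRT8, KRT18, RPE65, TGM5, PERP and the overlapping or antisense genes are named outside it. Alternatives were edgeR 4.0.16 with TMM or median-of-ratios factors and DESeq2 1.42.0, all on recovered reads, pseudocounts of 0.5 and 5, no filter, a mean of at least 50, only the compared groups, a replicate block, leaving out each library, and leaving out both libraries with wide detection.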

Additional observations from a re-analysis of the deposited data

How the results depend on the processing

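Over the 9 comparisons and all alternatives, 185 of 189 counts of changed members stayed within 1.5 times the main count, no fold change of a member reversed while called, and 1238 of 1278 kept their side of the threshold, with 13 calls gained and 27 lost. For Klf4 against GFP, 5 members had changed. The count was 3 when GFP and Klf4 alone were fitted, and 3 to 6 over the fits that left out 1 library, lowest without Klf4 replicate 1. For OSK against GFP, 3 members had changed. The count was 5 with both libraries of wide detection left out, and 3 to 5 over the fits that left out 1 library, highest without GFP replicate 1. In such fits a lone library of a line was assumed to vary like the other groups. The cause of these shifts was not tested. No pairing by replicate number was clear. Over 20 pairs of same-numbered libraries the correlation of deviations ran from -0.07 to 0.44. It was above 0.1 in 2 pairs, GFP with OSK at replicate 1 (0.435) and at replicate 2 (0.31), the groups that hold the libraries with wide detection. Of 10 libraries, 3 correlated best with their own number. In groups of 2 libraries the deviations mirror each other, so the pairs are not independent and cannot settle the question. With the replicate block the count of changed members was 4 for Klf4 against GFP, where the call of PPL was lost (log2 0.19, adjusted p = 0.0766, limma), and equal to the main count in the other 8 comparisons. Counts in the other gene lists against GFP left the range of 1.5 times the main count in 54 of 756 settings. Among them, for Klf4, the count of changed envelope and barrier genes went from 8 to 5 with the replicate block and to 3 with a filter at a mean of 50, for Sox2 it went from 5 to 3 when GFP and Sox2 alone were fitted, and that of epidermal regulators with Sox2 went from 11 to 5 with the filter at 50. The count of plakins, transglutaminases and 14-3-3 genes went from 8 to 5 with Oct4 and from 7 to 4 in OSK, both with the replicate block and when only the compared groups were fitted. No scaling moved the median of all genes by over 0.1 on the log2 scale. With no filter, over 48093 features, that median was -0.331 with Oct4, Sox2 and Klf4 and -0.236 in OSK, each against GFP. CNFN, IVL, EVPL, SFN and PKP3 had at most 111 reads each over all libraries, and the values of CNFN, IVL, EVPL and SFN moved with GFP replicate 1.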
